A study of Danio rerio with 8 samples.

Results

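Adult zebrafish hearts sampled 7 days after chemical ablation of ventricular cardiomyocytes were set against uninjured control hearts by bulk RNA sequencing, with 2 libraries at 7 days post injury (dpi) and 2 control libraries, 4 of the 8 libraries of the series. The 7 dpi fish, about 5 to 12 months old, had been exposed for 48 hours to 5 mM metronidazole in 0.1% dimethyl sulfoxide. In the transgene, the promoter of the ventricular myosin gene vmhc drives mCherry fused to the bacterial nitroreductase NfsB in ventricular cardiomyocytes, and this enzyme turns metronidazole into a toxin. The control fish are labelled as dimethyl sulfoxide controls (0.1% for 48 hours, without metronidazole) and as uninjured at day 0. The treatment protocol, however, describes day 0 as the time before metronidazole. The age of the control fish is not given, and the labels do not give the line or transgene of each library. No group received metronidazole without the ablation, so drug and ablation cannot be told apart. Each of these libraries pooled 4 to 6 hearts, and nothing says that the pools of a group came from separate clutches. The p-values measure the spread between pooled libraries, estimated over all 8 libraries of the series. These include 2 libraries of day 3 larval hearts, pooled from 500 hearts each. A further pair of libraries at 3 dpi, from fish treated in the same way, is also in the fit. It is described only where 7 dpi is compared with it.

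Zebrafish rebuild lost heart muscle. Surviving cardiomyocytes loosen their contractile apparatus, re-enter the cell cycle and divide, while epicardium, endocardium and immune cells send signals and lay down a temporary matrix. In bulk tissue, fewer cells of a type and less RNA per cell cannot be told apart. The series asks about amino acid supply and mTOR, the kinase that couples nutrients to protein synthesis, in this process.

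Before any gene is described, the 7 dpi libraries have to be set beside the others, because they stand apart as a whole. They were the deepest, with 26204332 and 26628897 counts against 10868019 and 17734354 in control hearts, and yet they detected the fewest genes, 18744 and 17785 against 20660 and 20818. The mitochondrially encoded transcripts took 24.7% and 28.2% of counts at 7 dpi, against 14.9% and 15.3% in control hearts. Cytosolic ribosomal protein genes held 13.6% and 11.9% of counts at 7 dpi, against 5.98% and 8.18% in control hearts. TMM scaling (trimmed mean of M values, which sets most genes level between libraries) answered with factors of 0.418 and 0.452 at 7 dpi and of 1.12 and 0.956 in control hearts. Levels are given in CPM, counts scaled to a common library size by these factors, which are not divided by gene length. Scaling by library totals instead moved the median log2 fold change of all genes by -1.24. Rises of about that size or less turn into falls on library totals, and some larger rises lose their call. Every change below is relative to the TMM scale. Differences from 3 dpi depend on it even more, since the factors at 3 dpi were 1.46 and 1.36. The median log2 fold change of all genes between 7 and 3 dpi was -0.21 with TMM and -1.89 with library totals. The column names give the 7 dpi libraries a run prefix of their own, while the control and 3 dpi libraries share another, so that the sequencing run and the 7 dpi group cannot be told apart, although the labels say that all libraries were sequenced together.

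With edgeR's quasi-likelihood test and Benjamini-Hochberg adjustment over the 19330 genes tested, 3616 genes rose and 3870 fell at 7 dpi (adjusted p under 0.05, n = 2 libraries per group). That is 38.7% of the genes, 18.7% higher and 20% lower, and the libraries of both groups did not overlap in 68.3% of genes. A gene that "rose by" or "fell by" a value did so on the log2 scale. Scaling by library totals gave 729 higher and 11041 lower, so the share of called genes that were higher was 48.3% with TMM and 6.19% with library totals. Without control replicate 1, the shallowest of the series, 4093 genes were called. For named genes whose call was lost when 1 library was left out, the adjusted p or the log2 fold change without it closes the paragraph. Paralogs share sequence, and the strand setting of the counting is not given here, so reads of near-identical copies (vmhc and vmhcl, the globins, the titins) may have been split or dropped. Calls also depended on abundance. Of the genes above the upper quartile of mean log2 CPM over all 8 libraries 38.3% rose and 15.5% fell, and of those below the lower quartile 5.15% rose and 14.4% fell. The counts of each gene list below are to be read against these shares.

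**Figure D1:**
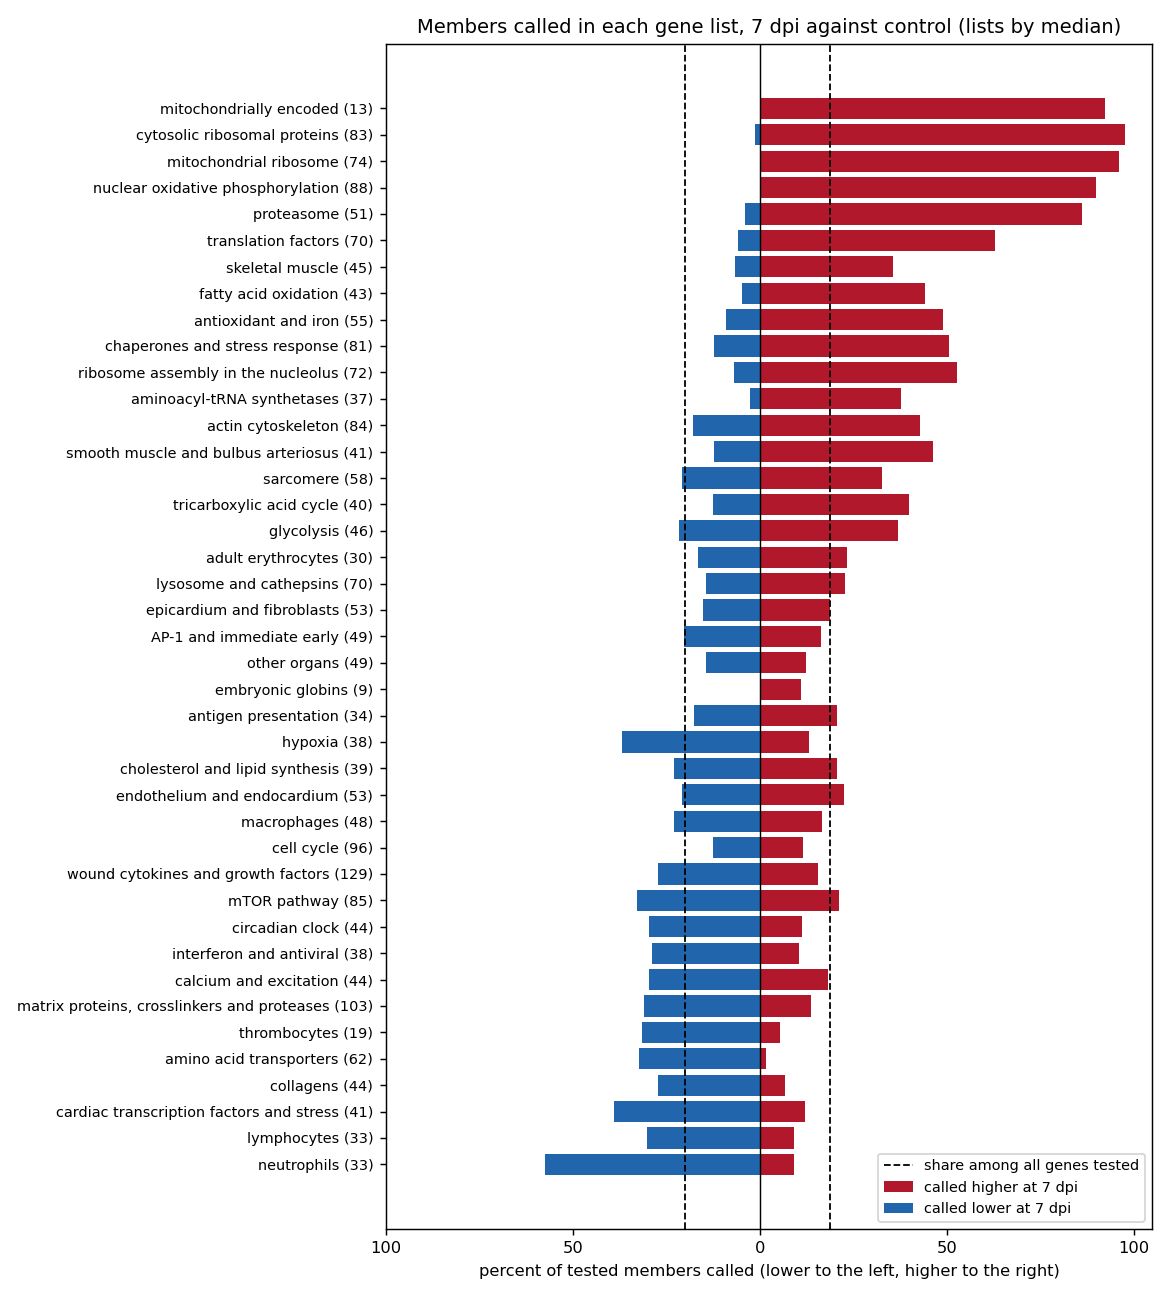
Percent of tested members called higher (red, to the right) and lower (blue, to the left) at 7 dpi in 41 gene lists, ordered by their median log2 fold change, with the number tested in brackets. Dashed lines mark the shares among all genes tested, 18.7% higher and 20% lower. Mitochondrial and ribosomal lists stand at the top and neutrophil and lymphocyte lists at the bottom, and most list medians between 0 and 1.24 turn negative on library totals.

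In a mixed set called genes of other functions, most small-protein genes were higher at 7 dpi and most large-protein genes were lower. Within the respiratory chain and the ribosome most members of both classes rose, and the small ones had the larger median. This was already visible in earlier results of these data, and the size classes used here were written with those results known, from what is generally known of the proteins and not from measured transcript lengths. No common length cutoff was applied, so small and large are relative within a family and are not the same contrast in each. Among the 94 small-protein genes of the mixed set 77 rose and 1, fkbp1ab, fell, with a median log2 fold change of 1.64. Many of the 94 encode subunits of complexes, such as sec61g and polr2k, and some are mitochondrial. Among the 100 large-protein genes of the mixed set 73 fell and none rose, with a median of -1.13. sec61g (ENSDARG00000018637), which encodes a short subunit of the protein-conducting channel of the endoplasmic reticulum, stood at 345 and 407 CPM at 7 dpi, against 10.6 and 18.5 CPM in control hearts (log2 fold change 4.69, SE 0.30, adjusted p = 4.57e-05). polr2k, which encodes a short subunit shared by the RNA polymerases, stood at 76.5 and 48.7 CPM at 7 dpi, against 2.95 and 4.6 CPM in control hearts. hspg2 (ENSDARG00000076564), the gene of the giant basement membrane proteoglycan perlecan, stood at 4.48 and 8.88 CPM at 7 dpi, against 67.0 and 29.1 CPM in control hearts (log2 fold change -2.84, SE 0.42, adjusted p = 0.000829). All of these separate the groups without overlap.

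**Figure D2:**
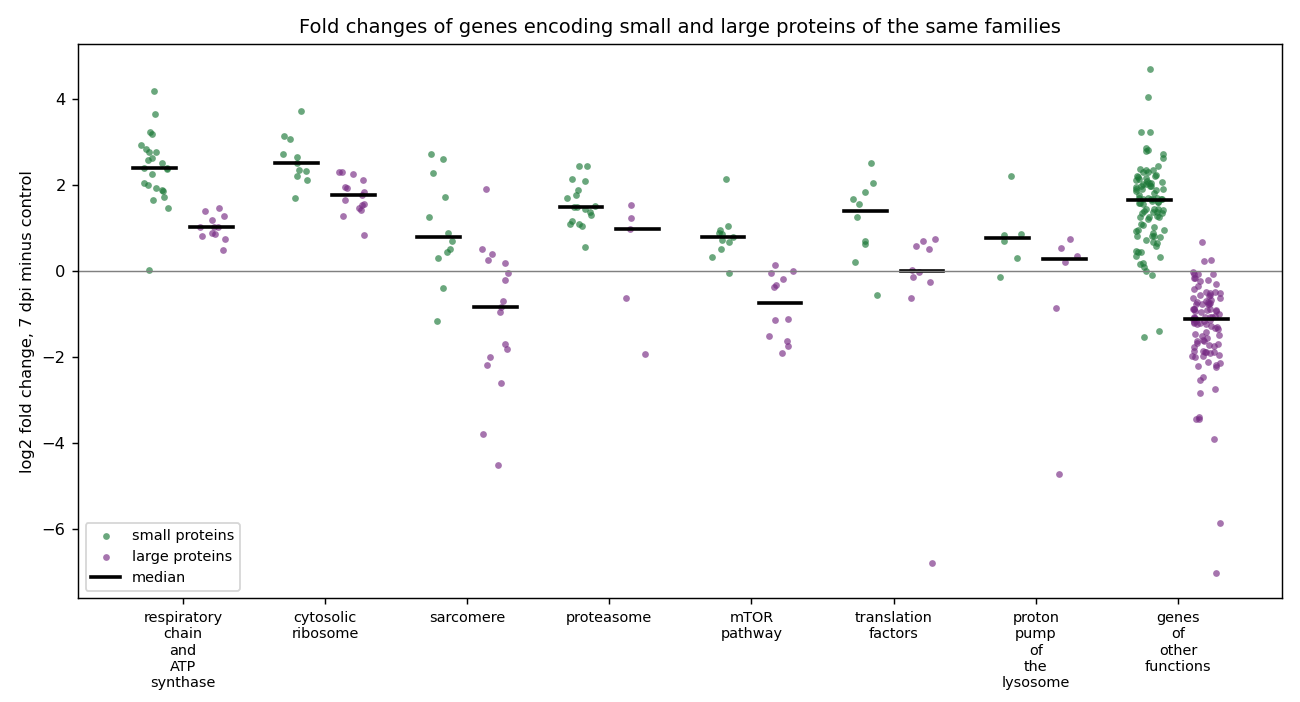
Log2 fold change (7 dpi minus control, TMM scale) of genes encoding small proteins (green, left of each pair) and large proteins (purple, right) in 8 families, with 1 point per gene and a black bar at the median. In every family the median of the small class lies above that of the large class, by 0.48 in the proton pump of the lysosome and by 2.77 in genes of other functions. Small and large are relative within each family, without a common length cutoff.

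In the respiratory chain and ATP synthase, 23 of 24 small subunits rose with a median of 2.38, and 9 of 12 large subunits rose with a median of 1.01. uqcr10, a short subunit of complex III, stood at 4292 and 3133 CPM at 7 dpi, against 144 and 264 CPM in control hearts. sdha, the flavoprotein of succinate dehydrogenase, stood at 1338 and 1115 CPM at 7 dpi, against 640.0 and 771 CPM in control hearts. In this pair the short subunit differs by far more than the long one, although both separate the groups. The pair does not stand for all members, since uqcr10 had the largest log2 fold change of the small class, 4.19. Small cox7c and uqcrh (1.46 and 1.64) lay close to large ndufa9a and uqcrc2a (1.46 and 1.39). In the cytosolic ribosome all 11 small members rose (median 2.5), as did 14 of 15 large ones (median 1.76). rps28 stood at 5044 and 3800.1 CPM at 7 dpi, against 255 and 419 CPM in control hearts, and rpl3 at 7098 and 5318 CPM at 7 dpi, against 1933 and 2706 CPM in control hearts. In the sarcomere, small members had a median of 0.78 and large members one of -0.85. The mTOR pathway split along the same line, with 6 of 11 small members higher (median 0.78) and 6 of 12 large members lower (median -0.75). Among proteasome genes 17 of 18 small members rose. Of the 5 large ones, psmd1, psmd3 and psmd5 rose and psme4a and psme4b, which encode a long activator of the proteasome, fell.

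The same difference between classes exists between the control libraries. The median log2 CPM of small-protein genes minus that of large-protein genes (genes of other functions) was 1.77 and 1.38 at 7 dpi, against -1.73 in control replicate 1 and -0.59 in control replicate 2. At 3 dpi it was -0.83 and -1.14. Control replicate 1 thus lies furthest from 7 dpi, and large-protein genes are often higher in it than in control replicate 2. The part of transcript size, RNA quality or library making in the gene results below was not tested. Genes that moved against their size, and genes of like size that moved apart, are pointed out in the groups below. Single genes of this kind do not decide what part size had. Adjusted p was 0.207 for fkbp1ab, 0.159 for sdha and 0.216 for psme4b without control replicate 1. Adjusted p was 0.191 for sdha, 0.0636 for rpl3 and 0.127 for psme4b without 7 dpi replicate 1. fkbp1ab had a log2 fold change of -2.75 without 7 dpi replicate 1. Adjusted p was 0.155 for fkbp1ab (log2 fold change -0.90), 0.0829 for sdha and 0.126 for psme4b without 7 dpi replicate 2.

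Transcripts of the mitochondrial genome rose as a group. Of 13 measured, 12 rose, with a median log2 fold change of 2.30. The exception was mt-nd5, a long subunit of complex I, which stood at 7331 and 9345 CPM at 7 dpi, against 5878 and 5039 CPM in control hearts (log2 fold change 0.61, SE 0.35, adjusted p = 0.188), without overlap between groups. mt-nd6, another complex I subunit, stood at 13368 and 12079.5 CPM at 7 dpi, against 1380.2 and 1647 CPM in control hearts (log2 fold change 3.07, SE 0.35, adjusted p = 0.000310). mt-atp6, a subunit of the ATP synthase, stood at 111126 and 112614 CPM at 7 dpi, against 11853 and 16398 CPM in control hearts. mt-co1, the core of cytochrome oxidase, stood at 115522 and 117739 CPM at 7 dpi, against 38908 and 41307 CPM in control hearts, a smaller difference (log2 fold change 1.54). On library totals 8 of the 13 were called higher and none lower. The shares of all counts given above do not depend on the scaling. Between 7 dpi and 3 dpi the difference in mt-nd6 was larger still (log2 fold change 4.49 against 3 dpi, SE 0.37, adjusted p = 3.15e-05). Adjusted p was 0.0611 for mt-co1 and 0.118 for mt-cyb without control replicate 1. Adjusted p was 0.0964 for mt-co1 and 0.120 for mt-cyb without 7 dpi replicate 1. Adjusted p was 0.100 for mt-co1 and 0.166 for mt-cyb without 7 dpi replicate 2.

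Contractile genes of the cardiomyocyte did not move together. The sarcomere is the actin and myosin machine of heart muscle, and its zebrafish genes come in pairs and clusters whose members encode proteins of like length. Of 58 sarcomere genes tested 19 rose and 12 fell, with a median of 0.47 (-0.79 on library totals, with 4 higher and 30 lower). As a share of all counts the list held 10.6% and 8.70% at 7 dpi, against 10.4% and 9.73% in control hearts. The myosin heavy chains, all long proteins, went both ways. vmhc (ENSDARG00000079564), the ventricular myosin whose promoter drives the transgene, stood at 709.9 and 856 CPM at 7 dpi, against 202 and 219.8 CPM in control hearts (log2 fold change 1.89, SE 0.33, adjusted p = 0.00166). myh6 (ENSDARG00000090637), the myosin of the atrium, stood at 494 and 465 CPM at 7 dpi, against 2879 and 943 CPM in control hearts (log2 fold change -1.99, SE 0.55, adjusted p = 0.0156). myh7ba (ENSDARG00000076075), another cardiac myosin gene, stood at 28.5 and 27.15 CPM at 7 dpi, against 557 and 212 CPM in control hearts (log2 fold change -3.79, SE 0.54, adjusted p = 0.000716). vmhcl, the most abundant of the family, stood at 32889 and 21363 CPM at 7 dpi, against 20634 and 20969 CPM in control hearts, which did not pass (log2 fold change 0.38, adjusted p = 0.508, and -0.89 with library totals). So with TMM vmhc was higher in both 7 dpi libraries while myh6 and myh7ba were lower, with no overlap in any of them. With library totals vmhc had a log2 fold change of 0.65 and was not called. How many ventricular cells were lost was not measured, and reads of the transgene were not analysed here.

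Titin, the giant spring of the sarcomere, was lower from both genes. ttn.1 stood at 21.6 and 14.9 CPM at 7 dpi, against 669 and 169.9 CPM in control hearts (log2 fold change -4.53, SE 0.69, adjusted p = 0.000926), and ttn.2 at 617 and 378 CPM at 7 dpi, against 2146 and 1099 CPM in control hearts (log2 fold change -1.71, SE 0.43). myom1b, which encodes myomesin of the M band, fell by 2.60, and xirp2a, which encodes a long actin-binding protein of the intercalated disc, by 2.19. Of the 12 small sarcomere members in the size classes, tnnc1a, cmlc1, tnnc1b and tnni1c rose, hspb7 fell and 7 did not pass. actc1a (ENSDARG00000042535), a cardiac actin gene, stood at 15022 and 11763 CPM at 7 dpi, against 969 and 1282 CPM in control hearts (log2 fold change 3.57, SE 0.39, adjusted p = 0.000282). cmlc1, a myosin light chain gene, stood at 61140.1 and 38424 CPM at 7 dpi, against 7977 and 12723 CPM in control hearts, and tnnc1b, a troponin C gene, at 3755 and 3026 CPM at 7 dpi, against 449 and 578 CPM in control hearts. tnnc1a, the other troponin C gene, rose by 1.71, tnni1c by 2.59, tpm4a, the tropomyosin of the heart, by 1.96 and tnnt2a, the cardiac troponin T, by 1.18 (-0.08 with library totals). myl7, the most used marker of cardiomyocytes, stood at 25791 and 32785 CPM at 7 dpi, against 13067 and 19025 CPM in control hearts and did not pass (log2 fold change 0.87, SE 0.48, adjusted p = 0.171, and -0.36 with library totals). smyd1b (ENSDARG00000091253), a muscle methyltransferase needed for myosin folding and assembly, stood at 248 and 140.1 CPM at 7 dpi, against 16.6 and 21.5 CPM in control hearts (log2 fold change 3.35, SE 0.43, adjusted p = 0.000478), 10.17-fold on the linear scale. hspb7, a small heat shock protein of heart muscle, went against its size, at 334 and 243 CPM at 7 dpi, against 818 and 491 CPM in control hearts (log2 fold change -1.18, SE 0.32). Adjusted p was 0.177 for myh6 (log2 fold change -1.0), 0.0887 for ttn.2, 0.0505 for tpm4a, 0.179 for tnnt2a, 0.0894 for tnni1c and 0.0997 for hspb7 without control replicate 1. Adjusted p was 0.0730 for tnnt2a without control replicate 2. Adjusted p was 0.0734 for myh6, 0.0538 for tpm4a and 0.313 for tnnt2a (log2 fold change 0.69) without 7 dpi replicate 1. Adjusted p was 0.0799 for myh6, 0.0829 for ttn.2 and 0.103 for hspb7 without 7 dpi replicate 2. In the sarcomere list, 7 fell without control replicate 1.

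**Figure D3:**
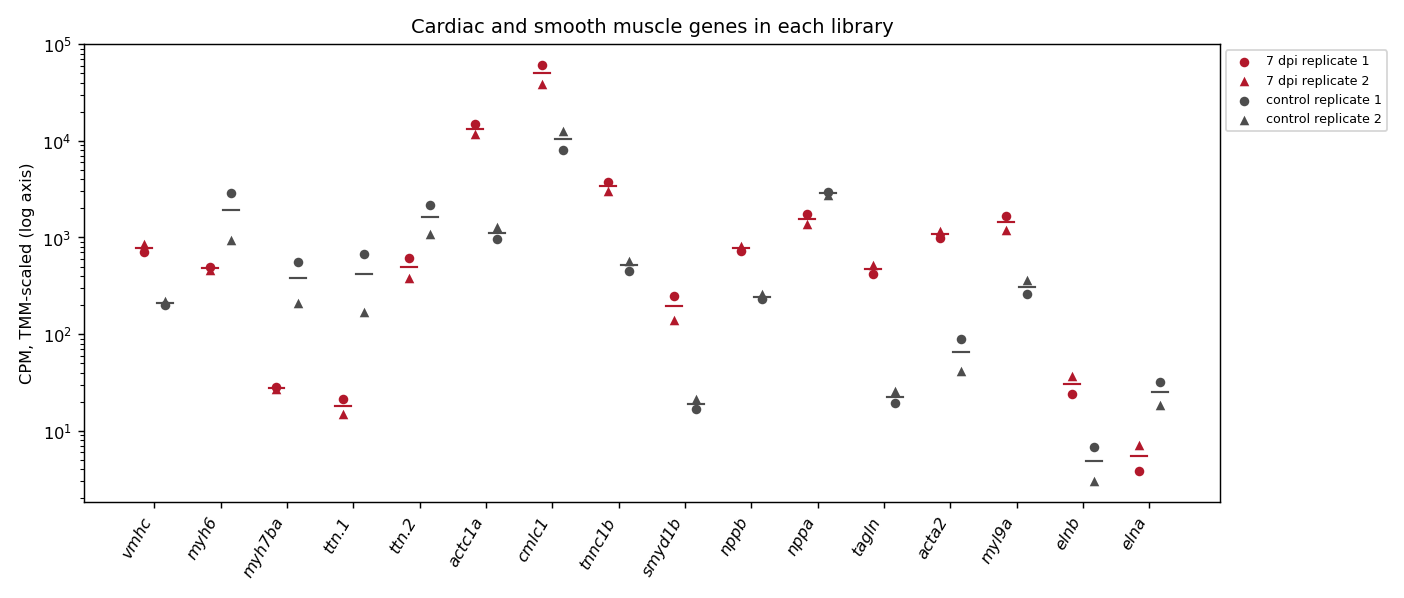
Levels of 16 cardiac and smooth muscle genes in each library, in TMM-scaled CPM on a log axis. For each gene the 2 libraries of 7 dpi (red) stand left of the 2 control libraries (grey), with circles for replicate 1, triangles for replicate 2 and a bar at the mean. Myosin and elastin paralogs part company, with vmhc and elnb higher at 7 dpi and myh6, myh7ba and elna lower, and for ttn.1, ttn.2, myh6 and myh7ba control replicate 1 lies above control replicate 2.

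The 2 natriuretic peptide genes, which both encode short hormone precursors, moved apart. nppb (ENSDARG00000052958), a marker of strained ventricle, stood at 720.1 and 824 CPM at 7 dpi, against 231 and 258 CPM in control hearts (log2 fold change 1.66, SE 0.27, adjusted p = 0.00129). nppa (ENSDARG00000052960), the atrial peptide, stood at 1746 and 1383 CPM at 7 dpi, against 2987 and 2732 CPM in control hearts (log2 fold change -0.87, SE 0.31, adjusted p = 0.0478). Neither pair of groups overlaps. With library totals nppb had a log2 fold change of 0.41 and was not called. Against 3 dpi nppb was lower, with 1841 and 1289.9 CPM at 3 dpi (log2 fold change -1.02 against 3 dpi, SE 0.27, adjusted p = 0.00871). ankrd1a, a stress-responsive muscle gene, stood at 1.74 and 7.89 CPM at 7 dpi, against 0.574 and 0.590 CPM in control hearts. It was far lower than in the earlier libraries, with 292 and 194 CPM at 3 dpi (log2 fold change -5.64 against 3 dpi, SE 0.53, adjusted p = 4.36e-05). The call of nppa was lost in 10 of the 15 alternatives run, among them the fit without mitochondrially encoded genes. With any 1 of the 4 libraries left out, adjusted p of nppa was between 0.0598 and 0.234, above the threshold. ankrd1a had a log2 fold change of 1.53 without 7 dpi replicate 2.

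Genes of excitation and calcium handling leaned lower. Of 44 tested 8 rose and 13 fell, with a median of -0.63 (-1.90 on library totals, with 1 higher and 29 lower). Long channel and exchanger proteins were among those that fell. slc8a1a, the cardiac sodium-calcium exchanger, stood at 362 and 444 CPM at 7 dpi, against 1551 and 1078 CPM in control hearts (log2 fold change -1.70, SE 0.39, adjusted p = 0.00670). cacna1c, the pore of the L-type calcium channel, stood at 5.67 and 5.23 CPM at 7 dpi, against 78.9 and 21.9 CPM in control hearts, and ryr2b, the calcium release channel of the sarcoplasmic reticulum, at 187 and 159 CPM at 7 dpi, against 681 and 284 CPM in control hearts. The potassium channel gene kcnq1 fell by 1.59. Control replicate 1 was higher than control replicate 2 in these 4 genes, and both 7 dpi libraries were below either. atp2a2a, the calcium pump of the sarcoplasmic reticulum, stood at 5854 and 4827 CPM at 7 dpi, against 3940.1 and 4344 CPM in control hearts and did not pass (log2 fold change 0.37, SE 0.37, adjusted p = 0.452, and -0.89 with library totals). Genes that rose include trdn and srl, which encode triadin and sarcalumenin of the sarcoplasmic reticulum, by 1.54 and 1.45. gja5a, a connexin of fast-conducting myocardium, rose by 1.47. atp1b1b, a beta subunit of the sodium pump, stood at 108 and 56.4 CPM at 7 dpi, against 6.47 and 14.9 CPM in control hearts (log2 fold change 2.93, SE 0.42, adjusted p = 0.000744). Adjusted p was 0.258 for ryr2b (log2 fold change -0.74) and 0.0525 for kcnq1 without control replicate 1. cacna1c had a log2 fold change of -2.03 without control replicate 1. Adjusted p was 0.0550 for slc8a1a and 0.0762 for ryr2b without 7 dpi replicate 1. Adjusted p was 0.111 for ryr2b without 7 dpi replicate 2. In the calcium and excitation list, 5 rose without control replicate 1 and 5 without 7 dpi replicate 1, and 6 fell without control replicate 1 and 8 without 7 dpi replicate 1.

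Transcription factors of the heart were lower on balance. Of 41 genes in the list, which also holds the stress genes nppa, nppb and ankrd1a, 16 fell, and hey2, irx1a, irx4a, nppb and ankrd1a rose, with a median of -0.87 (-2.14 on library totals, with 0 higher and 30 lower). gata4, a master regulator of heart muscle that is reactivated in regenerating zebrafish cardiomyocytes, stood at 3.02 and 3.07 CPM at 7 dpi, against 17.5 and 5.84 CPM in control hearts (log2 fold change -1.93, SE 0.47, adjusted p = 0.00930). tbx5a and tbx20, T-box factors of the myocardium, fell by 1.63 and 1.52. The Hippo pathway pair was lower too, with tead1b at 3.2 and 4.98 CPM at 7 dpi, against 28.9 and 21.5 CPM in control hearts (log2 fold change -2.61, SE 0.34, adjusted p = 0.000518) and wwtr1, its coactivator Taz, at 1.55 and 2.66 CPM at 7 dpi, against 19.4 and 5.84 CPM in control hearts. Genes known from the ventricle went the other way. irx1a stood at 123 and 54.7 CPM at 7 dpi, against 27.5 and 31.5 CPM in control hearts, hey2, which represses atrial identity, at 38.2 and 44.8 CPM at 7 dpi, against 10.24 and 18.8 CPM in control hearts, and irx4a at 1.83 and 1.99 CPM at 7 dpi, against 0.246 and 0.531 CPM in control hearts. Adjusted p was 0.0820 for gata4 (log2 fold change -0.96), 0.367 for tbx5a (log2 fold change -0.78), 0.235 for tbx20 (log2 fold change -0.89), 0.0965 for irx1a, 0.0714 for hey2 and 0.113 for irx4a without control replicate 1. wwtr1 had a log2 fold change of -1.49 without control replicate 1. Adjusted p was 0.0783 for tbx5a, 0.0955 for tbx20 and 0.134 for irx1a (log2 fold change 0.87) without 7 dpi replicate 1. Adjusted p was 0.159 for tbx5a and 0.0841 for tbx20 without 7 dpi replicate 2. In the cardiac transcription factors and stress list, 2 rose without control replicate 1, and 7 fell without control replicate 1 and 10 without 7 dpi replicate 2.

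Smooth muscle genes of the outflow tract and vessels were called higher more often than lower with TMM, and lower more often than higher with library totals. Long proteins were among those that rose. The bulbus arteriosus of fish is an elastic chamber of smooth muscle that leaves the ventricle. Of 41 genes tested 19 rose, while cald1a, elna, ltbp1, notch3 and myh11b fell, with a median of 0.58 (-0.65 on library totals, with 9 higher and 14 lower). tagln (ENSDARG00000045408), the actin-binding protein transgelin, stood at 420.4 and 513 CPM at 7 dpi, against 19.4 and 25.7 CPM in control hearts (log2 fold change 4.37, SE 0.36, adjusted p = 0.000147). acta2 (ENSDARG00000045180), smooth muscle actin, stood at 989 and 1180.5 CPM at 7 dpi, against 89.8 and 42.0 CPM in control hearts (log2 fold change 4.04, SE 0.37, adjusted p = 0.000172). mylka (ENSDARG00000034801), the long kinase that activates smooth muscle myosin, stood at 74.4 and 89.4 CPM at 7 dpi, against 18 and 17.8 CPM in control hearts (log2 fold change 2.19, SE 0.22, adjusted p = 0.000214). Both 7 dpi libraries exceed both controls in these 3. itga8, a long integrin chain of contractile cells, stood at 10.4 and 27 CPM at 7 dpi, against 1.88 and 3.13 CPM in control hearts, again without overlap. myl9a rose by 2.21, rgs5a, a marker of pericytes and mural cells, by 1.94, lmod1a by 3.70 and cnn1b, calponin, by 1.91. myh11a, the heavy chain of smooth muscle myosin, rose by 0.72 (-0.55 with library totals), while most large-protein genes of the mixed set fell. myh11b was at 0 counts in both 7 dpi libraries, at least 8.41-fold lower on a floor of 3 counts over the group. The 2 elastins parted, with elnb at 23.9 and 36.6 CPM at 7 dpi, against 6.80 and 3.01 CPM in control hearts (log2 fold change 2.65, SE 0.61, adjusted p = 0.00663) and elna at 3.84 and 7.14 CPM at 7 dpi, against 31.6 and 18.5 CPM in control hearts (log2 fold change -2.18, SE 0.38, adjusted p = 0.00183). cnn1b was lower than early after ablation, with 161 and 90.3 CPM at 3 dpi (log2 fold change -3.04 against 3 dpi, SE 0.37, adjusted p = 0.000120). For mylka, with 67.0 and 51.0 CPM at 3 dpi, the difference from 3 dpi did not pass (log2 fold change 0.47 against 3 dpi, SE 0.21, adjusted p = 0.0819). Adjusted p was 0.150 for cald1a, 0.0629 for ltbp1 (log2 fold change -0.85) and 0.277 for notch3 (log2 fold change -0.56) without control replicate 1. myh11a had a log2 fold change of 1.09 without control replicate 1. Adjusted p was 0.0581 for elnb and 0.256 for myh11a (log2 fold change 0.40) without control replicate 2. Adjusted p was 0.0704 for myh11a, 0.0626 for cald1a, 0.0549 for ltbp1 and 0.137 for notch3 without 7 dpi replicate 1. Adjusted p was 0.246 for myh11a and 0.0962 for cald1a without 7 dpi replicate 2. In the smooth muscle and bulbus arteriosus list, 2 fell without control replicate 1.

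Matrix genes fell more often than they rose. Of 44 collagens 12 fell, and col14a1b, col10a1a and col4a3, all at low levels, rose, with a median of -0.81 (-2.07 on library totals, with 0 higher and 23 lower). col12a1b (ENSDARG00000019601), a fibril-associated collagen of wounds, stood at 0.640 and 0.581 CPM at 7 dpi, against 22.7 and 7.43 CPM in control hearts (log2 fold change -4.6, SE 1.02, adjusted p = 0.00585). col6a2, a chain of microfibrillar collagen, stood at 51.6 and 50.4 CPM at 7 dpi, against 189 and 145 CPM in control hearts (log2 fold change -1.71, SE 0.24, adjusted p = 0.000644). Both are lower in each 7 dpi library than in either control. col10a1a was at 0 counts in both control libraries and at 1.46 and 0.249 CPM at 7 dpi, at least 8.03-fold higher on the same floor. col4a3 was detected in only 1 of the 7 dpi libraries, at 4.90 CPM, and without 7 dpi replicate 2 its direction reversed (log2 fold change -2.67, not called). Of 103 other matrix genes 32 fell and 14 rose, with a median of -0.66 (-1.84 on library totals, with 4 higher and 67 lower). nid1b, a basement membrane linker, fell by 1.91, and mmp14b, a membrane-bound matrix protease, by 1.64. Against its size, acana (ENSDARG00000035891), the large cartilage proteoglycan aggrecan, stood at 17.8 and 27.9 CPM at 7 dpi, against 1.80 and 1.24 CPM in control hearts (log2 fold change 3.93, SE 0.38, adjusted p = 0.000174). loxa, an enzyme that crosslinks collagen and elastin, stood at 4.2 and 6.81 CPM at 7 dpi, against 0.574 and 0.944 CPM in control hearts. sparc, a matrix protein that binds collagen, stood at 693 and 922 CPM at 7 dpi, against 174 and 361 CPM in control hearts. With library totals sparc had a log2 fold change of 0.39 and was not called. These 3 were higher in both 7 dpi libraries than in either control. Adjusted p was 0.0540 for col12a1b, 0.155 for col10a1a, 0.0587 for col14a1b and 0.157 for col4a3 without control replicate 1. Adjusted p was 0.154 for col10a1a, 0.0509 for col14a1b and 0.108 for col4a3 without control replicate 2. Adjusted p was 0.236 for col10a1a without 7 dpi replicate 1. In the collagens list, 0 rose without control replicate 1 and 0 without control replicate 2. In the matrix proteins, crosslinkers and proteases list, 9 rose without control replicate 1 and 9 without 7 dpi replicate 2, and 16 fell without control replicate 1 and 20 without 7 dpi replicate 1.

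More neutrophil genes fell than rose at 7 dpi, and some genes of short proteins were among those that fell. Of 33 tested 19 fell, with a median of -1.69 (-2.96 on library totals, with 2 higher and 27 lower), lower than that of the large-protein genes. The 3 that rose, cfl1l, nccrp1 and s100a10b, are also known from other cell types. Of these, s100a10b (log2 fold change 2.02) belongs to the small-protein genes of other functions, so the short members went both ways. mpx (ENSDARG00000019521), the myeloperoxidase of neutrophil granules, stood at 2.65 and 0.747 CPM at 7 dpi, against 49.4 and 15.7 CPM in control hearts (log2 fold change -4.27, SE 0.63, adjusted p = 0.000813). lyz (ENSDARG00000057789), lysozyme, stood at 36.2 and 17.4 CPM at 7 dpi, against 205 and 99.0 CPM in control hearts (log2 fold change -2.5, SE 0.43, adjusted p = 0.00160). npsn (ENSDARG00000010423), a granule protease, stood at 13.2 and 12.6 CPM at 7 dpi, against 171 and 69.1 CPM in control hearts (log2 fold change -3.22, SE 0.44, adjusted p = 0.000627). lyz and npsn encode short proteins. lect2l, a small secreted protein of neutrophils, fell by 1.42, and cyba, the short subunit of the oxidase that makes superoxide, by 1.5. Each of these is lower in both 7 dpi libraries than in either control, and lyz, npsn, lect2l and cyba run against the rise of other genes of short proteins. mpx was also lower than early after ablation, with 30.2 and 26.0 CPM at 3 dpi (log2 fold change -4.06 against 3 dpi, SE 0.62, adjusted p = 0.000442), as was npsn, with 42.6 and 51.5 CPM at 3 dpi (log2 fold change -1.87 against 3 dpi, SE 0.43, adjusted p = 0.00434). For lyz, with 32.3 and 33.4 CPM at 3 dpi, the difference from 3 dpi did not pass (log2 fold change -0.30 against 3 dpi, SE 0.41, adjusted p = 0.574). Adjusted p was 0.0838 for lect2l and 0.112 for nccrp1 without control replicate 1. Adjusted p was 0.130 for nccrp1 without 7 dpi replicate 1. Adjusted p was 0.0533 for lect2l without 7 dpi replicate 2. In the neutrophils list, 11 fell without control replicate 1.

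Macrophage genes did not move as one. Of 48 tested 8 rose and 11 fell, with a median of -0.19 (-1.43 on library totals, with 2 higher and 28 lower). Both counts lie near the shares of all genes, 18.7% higher and 20% lower. The receptors for colony stimulating factor, on which macrophages depend, were lower, with csf1ra at 1.83 and 1.58 CPM at 7 dpi, against 27.5 and 15.5 CPM in control hearts (log2 fold change -3.65, SE 0.50, adjusted p = 0.000607) and csf1rb at 1.28 and 0.913 CPM at 7 dpi, against 34.9 and 10.1 CPM in control hearts (log2 fold change -4.35, SE 0.59, adjusted p = 0.000603). mpeg1.1, a pore protein used as the standard macrophage marker, stood at 28.1 and 19 CPM at 7 dpi, against 43.2 and 52.6 CPM in control hearts (log2 fold change -1.02, SE 0.35). The pan-leukocyte genes ptprc and itgb2 fell by 2.40 and 2.05. apoeb (ENSDARG00000040295), an apolipoprotein of macrophages and other cells, went the other way, at 81.6 and 189.9 CPM at 7 dpi, against 2.38 and 3.48 CPM in control hearts (log2 fold change 5.51, SE 0.75, adjusted p = 0.000609), and its 7 dpi libraries differ from each other more than its controls do. The log2 differences from the earlier libraries were larger, with csf1ra at 134 and 55.1 CPM at 3 dpi (log2 fold change -5.79 against 3 dpi, SE 0.52, adjusted p = 4.00e-05), and itgb2 at 257 and 128 CPM at 3 dpi (log2 fold change -3.52 against 3 dpi, SE 0.38, adjusted p = 7.11e-05). With any 1 of the 4 libraries left out, adjusted p of mpeg1.1 was between 0.0525 and 0.198, above the threshold. In the macrophages list, 5 rose without control replicate 1, and 6 fell without control replicate 1.

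Lymphocyte and interferon genes leaned lower. Of 33 lymphocyte genes 10 fell, and cd247, cd3eap and gata3 rose, with a median of -1.08 (-2.30 on library totals, with 1 higher and 19 lower). Despite its name cd3eap encodes a subunit of RNA polymerase I and is no lymphocyte marker, and it gave -0.28 with library totals. cd247, the zeta chain of the T cell receptor, stood at 32.7 and 26.5 CPM at 7 dpi, against 2.79 and 7.02 CPM in control hearts (log2 fold change 2.57, SE 0.40, adjusted p = 0.00101). Of 38 interferon genes 11 fell, and irf1b, irf9, isg15 and rsad2 rose, with a median of -0.56 (-1.81 on library totals, with 0 higher and 26 lower). stat1a (ENSDARG00000006266), the transcription factor that carries interferon signals, stood at 16.9 and 28.5 CPM at 7 dpi, against 136 and 115 CPM in control hearts (log2 fold change -2.47, SE 0.27, adjusted p = 0.000276), and ifngr1, a receptor chain for interferon gamma, at 2.92 and 1.08 CPM at 7 dpi, against 51.5 and 17.1 CPM in control hearts (log2 fold change -4.10, SE 0.57, adjusted p = 0.000644). The antiviral genes rsad2 and isg15 rose by 1.49 and 1.23. Of 34 antigen presentation genes 7 rose and 6 fell with a median of -0.03 (-1.28 on library totals, with 0 higher and 22 lower). Such counts are near the shares of all genes, 18.7% higher and 20% lower. The light chain of MHC class I is encoded by paralogs of like length that parted. b2ml (ENSDARG00000015887) stood at 156 and 187 CPM at 7 dpi, against 1109 and 935 CPM in control hearts (log2 fold change -2.57, SE 0.26, adjusted p = 0.000226), and b2m at 979.5 and 832 CPM at 7 dpi, against 789 and 1049 CPM in control hearts with overlapping libraries (log2 fold change -0.02, adjusted p = 0.982). mhc2dab, a chain of MHC class II, stood at 30.0 and 14.9 CPM at 7 dpi, against 120.1 and 143 CPM in control hearts (log2 fold change -2.55, SE 0.35, adjusted p = 0.000748). Adjusted p was 0.135 for cd3eap, 0.0646 for gata3, 0.0583 for irf1b, 0.221 for irf9 and 0.158 for isg15 without control replicate 1. Adjusted p was 0.0543 for cd3eap and 0.0661 for irf9 without control replicate 2. Adjusted p was 0.176 for cd3eap and 0.394 for irf9 (log2 fold change 0.34) without 7 dpi replicate 1. Adjusted p was 0.0821 for gata3 (log2 fold change 0.87) and 0.248 for isg15 (log2 fold change 0.61) without 7 dpi replicate 2. In the lymphocytes list, 1 rose without control replicate 1, and 6 fell without control replicate 1 and 6 without control replicate 2. In the interferon and antiviral list, 1 rose without control replicate 1. In the antigen presentation list, 4 rose without control replicate 1 and 4 without 7 dpi replicate 1.

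**Figure D4:**
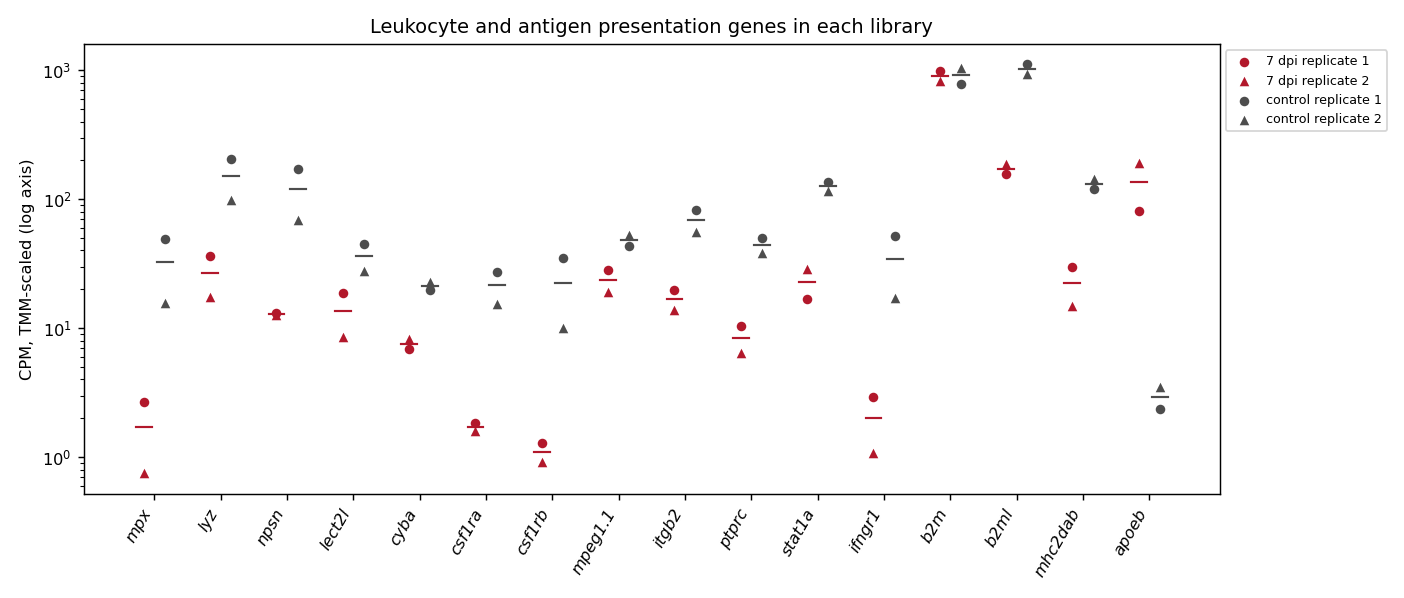
Levels of 16 leukocyte and antigen presentation genes in each library, in TMM-scaled CPM on a log axis, with 7 dpi (red) left of control (grey), circles for replicate 1, triangles for replicate 2 and a bar at the mean. Apart from b2m, which overlaps, and apoeb, which is higher, every gene shown is lower in both 7 dpi libraries than in either control. The genes shown were picked and do not stand for their lists. Of 48 macrophage genes 8 rose and 11 fell, and of 34 antigen presentation genes 7 rose and 6 fell.

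Endothelial genes went both ways with TMM. Of 53 tested 12 rose and 11 fell, with a median of -0.16 (-1.41 on library totals, with 2 higher and 38 lower). Both counts lie near the shares of all genes, 18.7% higher and 20% lower. This list was not split by protein size, and 30 of its genes were not called. Receptors were among those that fell, with kdr, a receptor for vascular endothelial growth factor, at 11.6 and 11.8 CPM at 7 dpi, against 116 and 53.5 CPM in control hearts (log2 fold change -2.85, SE 0.34, adjusted p = 0.000350) and notch1b, the Notch receptor of the endocardium, at 58.7 and 56.0 CPM at 7 dpi, against 282 and 144 CPM in control hearts (log2 fold change -1.89, SE 0.31, adjusted p = 0.00141). cdh5, the cadherin of endothelial junctions, fell by 1.3, dll4, a Notch ligand, by 2.14 and kdrl by 0.96. Those that rose include aqp8a.1, a water channel of vessels, at 2125 and 1939 CPM at 7 dpi, against 470.1 and 623 CPM in control hearts (log2 fold change 1.89, SE 0.32, adjusted p = 0.00147) and fabp11a, a fatty acid carrier, at 2508 and 1839 CPM at 7 dpi, against 359 and 620.3 CPM in control hearts (log2 fold change 2.15, SE 0.33, adjusted p = 0.000926). egfl7, a secreted vessel factor, rose by 1.25. Of 53 genes of epicardium and fibroblasts 10 rose and 8 fell with a median of 0.09 (-0.07 with upper-quartile scaling and -1.18 on library totals, with 2 higher and 33 lower). Here too the counts were near or below the shares of all genes. anxa2a, a membrane-binding protein, rose by 1.68 and krt94, an epicardial keratin, by 1.58, while the epicardial factor tbx18 fell by 1.21. Adjusted p was 0.0621 for kdrl without 7 dpi replicate 1. In the endothelium and endocardium list, 5 rose without control replicate 1 and 6 without 7 dpi replicate 1, and 6 fell without 7 dpi replicate 1 and 7 without 7 dpi replicate 2. In the epicardium and fibroblasts list, 5 rose without control replicate 1 and 5 without 7 dpi replicate 1, and 3 fell without control replicate 1, 5 without 7 dpi replicate 1 and 4 without 7 dpi replicate 2.

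Nuclear genes of oxidative phosphorylation and the mitochondrial ribosome rose, while genes of the metabolic pathways went both ways. Of 88 nuclear genes of oxidative phosphorylation 79 rose and none fell, with a median of 1.81 (0.57 on library totals, with 38 higher and 4 lower), and 71 of 74 genes of the mitochondrial ribosome rose, with a median of 1.81 (0.57 on library totals, with 36 higher and 1 lower). These medians are close to the 1.64 of small-protein genes of other functions. That set itself holds mitochondrial genes, among them mrpl34, mrpl36, mrps21 and cox17, so it cannot separate size from mitochondrial function. ndufs5, a short complex I subunit, stood at 1108 and 1069.8 CPM at 7 dpi, against 71.2 and 104 CPM in control hearts (log2 fold change 3.64, SE 0.32, adjusted p = 0.000165). cox7a2a, a short subunit of cytochrome oxidase, stood at 233 and 208 CPM at 7 dpi, against 18.7 and 28.5 CPM in control hearts. In the tricarboxylic acid cycle 16 of 40 genes rose, and pdk2a, pdk3a, pdk4, pcxa and aco1 fell, with a median of 0.45 (-0.82 on library totals, with 4 higher and 22 lower). fh, fumarase, stood at 536 and 460.1 CPM at 7 dpi, against 68.9 and 79.8 CPM in control hearts (log2 fold change 2.74, SE 0.26, adjusted p = 0.000174) and suclg1, a subunit of succinyl-CoA ligase, at 1161 and 948 CPM at 7 dpi, against 217 and 299 CPM in control hearts (log2 fold change 2.03, SE 0.27, adjusted p = 0.000533). The genes that fell include 3 kinases that switch off pyruvate dehydrogenase, and pdk2a (ENSDARG00000020876) stood at 145 and 172 CPM at 7 dpi, against 630.0 and 693 CPM in control hearts (log2 fold change -2.06, SE 0.23, adjusted p = 0.000298). In fatty acid oxidation 19 of 43 genes rose, and mlycd and ppargc1a fell, with a median of 0.78 (-0.40 on library totals, with 3 higher and 18 lower). fabp3, the fatty acid carrier of heart muscle, stood at 2912 and 2171 CPM at 7 dpi, against 536 and 911 CPM in control hearts, and acot13, a thioesterase, at 174 and 138 CPM at 7 dpi, against 10.24 and 17.3 CPM in control hearts. ppargc1a, the coactivator that drives mitochondrial growth, stood at 3.93 and 3.49 CPM at 7 dpi, against 31.0 and 12.0 CPM in control hearts (log2 fold change -2.53, SE 0.44, adjusted p = 0.00177). In glycolysis 17 of 46 genes rose and 10 fell, with a median of 0.38 (-0.85 on library totals, with 0 higher and 22 lower). slc2a1b, a glucose transporter, fell by 2.25 and pfkla, a phosphofructokinase, by 2.02, and gapdh, at 52164 and 47545 CPM at 7 dpi, against 16042 and 23311 CPM in control hearts, did not pass (adjusted p = 0.0523). Adjusted p was 0.167 for pdk4, 0.112 for pcxa and 0.0776 for mlycd without control replicate 1. Adjusted p was 0.109 for pdk4 and 0.101 for pcxa without 7 dpi replicate 1. Adjusted p was 0.116 for pdk4 and 0.0782 for mlycd without 7 dpi replicate 2. In the tricarboxylic acid cycle list, 7 rose without control replicate 1 and 8 without 7 dpi replicate 1, and 3 fell without control replicate 1. In the fatty acid oxidation list, 9 rose without control replicate 1 and 12 without 7 dpi replicate 1, and 1 fell without control replicate 1 and 1 without 7 dpi replicate 2. In the glycolysis list, 9 rose without control replicate 1, 11 without control replicate 2 and 6 without 7 dpi replicate 1.

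Redox genes were called higher more often than lower with TMM, and lower more often than higher with library totals. Of 55 genes of antioxidant defence and iron 27 rose, and nfe2l2a, nfe2l1a, nfe2l1b, tfr1a and slc25a37 fell, with a median of 0.77 (-0.43 on library totals, with 6 higher and 18 lower). The glutathione peroxidase gpx1a stood at 1289 and 1439 CPM at 7 dpi, against 191 and 287 CPM in control hearts (log2 fold change 2.51, SE 0.27, adjusted p = 0.000282), and gpx4b and the mitochondrial peroxiredoxin prdx3 rose by 2.41 and 2.05. nfe2l2a (ENSDARG00000042824), the transcription factor Nrf2 that switches on antioxidant genes, stood at 18.5 and 14.9 CPM at 7 dpi, against 86.1 and 82.0 CPM in control hearts (log2 fold change -2.33, SE 0.21, adjusted p = 0.000172). tfr1a, a transferrin receptor for iron uptake, stood at 6.31 and 13.4 CPM at 7 dpi, against 112 and 47.6 CPM in control hearts (log2 fold change -3.0, SE 0.47, adjusted p = 0.00102). Adjusted p was 0.0803 for nfe2l1a, 0.104 for nfe2l1b and 0.376 for slc25a37 (log2 fold change -0.52) without control replicate 1. Adjusted p was 0.130 for nfe2l1b and 0.133 for slc25a37 without 7 dpi replicate 1. Adjusted p was 0.0823 for nfe2l1a and 0.0793 for slc25a37 without 7 dpi replicate 2. In the antioxidant and iron list, 2 fell without control replicate 1 and 3 without 7 dpi replicate 1.

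Nearly all ribosomal protein genes and most translation factors rose with TMM. With library totals more translation factors were called lower than higher. Of 83 cytosolic ribosomal protein genes 81 rose, rps8b fell and rpl4 did not pass, with a median of 2.17 (0.94 on library totals, with 53 higher and 1 lower). Of these, 47 lay above the upper quartile of the small-protein genes of other functions. rps15a stood at 5954 and 5554 CPM at 7 dpi, against 363 and 653 CPM in control hearts (log2 fold change 3.50, SE 0.36, adjusted p = 0.000225). Of 70 translation factors 44 rose, and eef1e1, eif3jb, eif3bb and eif4g3b fell, with a median of 1.04 (-0.20 on library totals, with 7 higher and 26 lower). eif3bb was at 0 counts in both 7 dpi libraries, at least 5.52-fold lower on a floor of 3 counts over the group. eif4e1c (ENSDARG00000012274), a cap-binding factor of the eIF4E family found in aquatic vertebrates and known from zebrafish heart regeneration, stood at 54.0 and 62.3 CPM at 7 dpi, against 10.8 and 9.80 CPM in control hearts (log2 fold change 2.5, SE 0.22, adjusted p = 0.000165). On the TMM scale eif4e1c stood at 51.6 and 62.0 CPM at 3 dpi as well (log2 fold change 0.03 against 3 dpi, SE 0.20, adjusted p = 0.912). Its difference from 3 dpi on library totals, where the median of all genes was -1.89, is not given here. Of 72 nucleolar genes of ribosome assembly 38 rose, and utp3, nop2, nob1, npm1b and rrp8 fell, with a median of 0.73 (-0.51 on library totals, with 3 higher and 33 lower). Of 37 aminoacyl-tRNA synthetases 14 rose and larsa, the leucyl enzyme that also senses leucine for mTOR, fell, with a median of 0.68 (-0.58 on library totals, with 0 higher and 17 lower). The call of larsa was kept in only 6 of the 15 alternatives run, and was lost with DESeq2 (adjusted p = 0.0605). Adjusted p was 0.238 for rps8b, 0.133 for eif3bb, 0.180 for eif4g3b, 0.0560 for npm1b and 0.223 for larsa without control replicate 1. Adjusted p was 0.0500 for rps8b, 0.0766 for nob1, 0.0847 for npm1b and 0.236 for rrp8 (log2 fold change -0.57) without control replicate 2. Adjusted p was 0.0932 for eif3bb, 0.0636 for eif4g3b, 0.0545 for nob1, 0.126 for npm1b, 0.0523 for rrp8 and 0.152 for larsa without 7 dpi replicate 1. Adjusted p was 0.192 for rps8b, 0.0985 for eif3bb, 0.167 for eif4g3b, 0.0878 for nop2, 0.109 for nob1, 0.196 for rrp8 and 0.0621 for larsa without 7 dpi replicate 2. In the ribosome assembly in the nucleolus list, 21 rose without control replicate 1 and 19 without 7 dpi replicate 1, and 2 fell without control replicate 2, 3 without 7 dpi replicate 1 and 2 without 7 dpi replicate 2. In the translation factors list, 2 fell without control replicate 1 and 2 without 7 dpi replicate 1. In the aminoacyl-tRNA synthetases list, 8 rose without control replicate 1, 9 without control replicate 2 and 9 without 7 dpi replicate 1, and 0 fell without control replicate 1 and 0 without 7 dpi replicate 2.

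Amino acid transporters and mTOR genes leaned lower. Of 62 transporters 20 fell and slc25a12, a mitochondrial carrier, rose, with a median of -0.74 (-2.01 on library totals, with 0 higher and 44 lower). slc38a9 (ENSDARG00000032769), the lysosomal transporter that signals arginine to mTOR, stood at 4.3 and 2.08 CPM at 7 dpi, against 34.3 and 22.4 CPM in control hearts (log2 fold change -3.16, SE 0.35, adjusted p = 0.000304). slc38a3b, a glutamine transporter, fell by 2.16, and slc43a2a, a transporter of large neutral amino acids, by 1.15. Of 85 mTOR pathway genes 18 rose and 28 fell, with a median of -0.38 (-1.65 on library totals, with 1 higher and 63 lower). The long kinase and its scaffold were lower, with mtor at 21.6 and 19.8 CPM at 7 dpi, against 53.3 and 38.1 CPM in control hearts (log2 fold change -1.14, SE 0.22, adjusted p = 0.00280) and rptor at 8.13 and 4.98 CPM at 7 dpi, against 17 and 11.6 CPM in control hearts. irs1, which relays insulin signals, stood at 11.3 and 19.3 CPM at 7 dpi, against 95.4 and 58.1 CPM in control hearts (log2 fold change -2.32, SE 0.31, adjusted p = 0.000541), and igf1ra, a growth factor receptor, at 0.548 and 0.166 CPM at 7 dpi, against 7.38 and 2.77 CPM in control hearts. Both 7 dpi libraries are below both controls in each of these. Genes that restrain the pathway, none of them giant, parted. ddit4, an inhibitor induced by stress, stood at 129 and 178 CPM at 7 dpi, against 21.1 and 19.9 CPM in control hearts (log2 fold change 2.90, SE 0.69, adjusted p = 0.00780), and eif4ebp3, a repressor of cap-dependent translation that mTOR inactivates, at 135 and 106 CPM at 7 dpi, against 18.8 and 36.2 CPM in control hearts (log2 fold change 2.13, SE 0.33, adjusted p = 0.000972). akt1s1, a brake within mTOR complex 1, rose by 0.98 (-0.25 with library totals), and lamtor2, a lysosomal anchor of the pathway, by 0.94 (-0.29 with library totals). deptor (ENSDARG00000040930), which binds and inhibits mTOR, stood at 6.31 and 10.04 CPM at 7 dpi, against 34.5 and 40.4 CPM in control hearts (log2 fold change -2.19, SE 0.29, adjusted p = 0.000566). With any 1 of the 4 libraries left out, adjusted p of slc25a12 was between 0.0652 and 0.198, above the threshold. Adjusted p was 0.0613 for slc43a2a, 0.108 for rptor, 0.0705 for ddit4, 0.0648 for akt1s1 and 0.0887 for lamtor2 without control replicate 1. Adjusted p was 0.0542 for ddit4 without control replicate 2. Adjusted p was 0.0803 for slc43a2a and 0.0509 for lamtor2 without 7 dpi replicate 1. Adjusted p was 0.0523 for slc43a2a, 0.0923 for rptor, 0.0607 for akt1s1 and 0.0620 for lamtor2 without 7 dpi replicate 2. In the amino acid transporters list, 0 rose without control replicate 1 and 0 without 7 dpi replicate 1. In the mTOR pathway list, 11 rose without control replicate 1, and 18 fell without control replicate 1.

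With TMM, genes of protein quality control rose in the proteasome arm and were mixed among chaperones. As a share of all counts the proteasome list overlapped between groups. It held 0.248% and 0.222% at 7 dpi, against 0.207% and 0.227% in control hearts. Of 51 proteasome genes 44 rose and psme4a and psme4b fell, with a median of 1.23 (-0.02 on library totals, with 9 higher and 5 lower). pomp, the assembly factor of the proteasome, stood at 296 and 236 CPM at 7 dpi, against 36.1 and 61.7 CPM in control hearts (log2 fold change 2.44, SE 0.28, adjusted p = 0.000317). Of 81 chaperone and stress genes 41 rose and 10 fell, with a median of 0.76 (-0.49 on library totals, with 5 higher and 38 lower). hsp90aa1.1, the Hsp90 of muscle, stood at 322 and 215 CPM at 7 dpi, against 23.9 and 27.14 CPM in control hearts (log2 fold change 3.39, SE 0.38, adjusted p = 0.000310). The small heat shock genes parted, with hspb1 at 5317 and 3855 CPM at 7 dpi, against 668 and 1068 CPM in control hearts (log2 fold change 2.40, SE 0.39, adjusted p = 0.00122), and hspb8 at 54.2 and 108 CPM at 7 dpi, against 444 and 384 CPM in control hearts (log2 fold change -2.35, SE 0.35, adjusted p = 0.000874), without overlap in either. In the integrated stress response, ddit3 (ENSDARG00000059836), the factor CHOP that promotes death of stressed cells, stood at 1.01 and 0.249 CPM at 7 dpi, against 35.3 and 16.2 CPM in control hearts (log2 fold change -5.37, SE 0.53, adjusted p = 0.000185). Its partners in that pathway were higher, with chac1, which degrades glutathione, at 1292 and 1750.2 CPM at 7 dpi, against 415 and 488 CPM in control hearts and atf4a, its central factor, at 512 and 475 CPM at 7 dpi, against 185 and 243 CPM in control hearts. xbp1, a factor of the unfolded protein response, rose by 1.65. The part of protein size in the fall of ddit3 was not tested. In the proteasome list, 1 fell without control replicate 1 and 1 without 7 dpi replicate 2. In the chaperones and stress response list, 24 rose without control replicate 1 and 21 without 7 dpi replicate 1, and 4 fell without control replicate 1, 6 without 7 dpi replicate 1 and 5 without 7 dpi replicate 2.

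Most cell cycle genes did not pass. Of 96 cell cycle genes 11 rose and 12 fell, with a median of -0.30 (-1.55 on library totals, with 2 higher and 55 lower), fewer in both directions than among all genes. mki67 and top2a, marks of dividing cells that encode long proteins, stood at 1.65 and 4.90 CPM at 7 dpi, against 23.8 and 6.73 CPM in control hearts, and at 2.38 and 3.24 CPM at 7 dpi, against 19.7 and 6.37 CPM in control hearts. The replication helicase subunit mcm6 stood at 2.74 and 5.4 CPM at 7 dpi, against 24.7 and 8.20 CPM in control hearts. In these 3 genes control replicate 1 was far higher than control replicate 2. hmgb2b, a short chromatin protein of dividing cells, stood at 259 and 204 CPM at 7 dpi, against 46.3 and 53.8 CPM in control hearts (log2 fold change 2.21, SE 0.29, adjusted p = 0.000542), and bub3, a spindle checkpoint protein, rose by 2.36. Adjusted p was 0.409 for mki67 (log2 fold change -1.05), 0.348 for top2a (log2 fold change -1.20) and 0.121 for mcm6 (log2 fold change -1.03) without control replicate 1. Adjusted p was 0.208 for mki67, 0.160 for top2a and 0.0714 for mcm6 without 7 dpi replicate 1. Adjusted p was 0.0501 for mki67 and 0.107 for top2a without 7 dpi replicate 2. In the cell cycle list, 6 rose without control replicate 1, and 2 fell without control replicate 1 and 4 without 7 dpi replicate 1.

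Wound signals were called lower more often than higher. il11a, a cytokine needed for regeneration in zebrafish, had 0 and 0.0830 CPM at 7 dpi, against 1.23 and 0.236 CPM in control hearts, and 268 and 130.2 CPM at 3 dpi. Against control it did not pass (adjusted p = 0.0552), and against 3 dpi it was lower (adjusted p = 2.36e-05). il6st, the receptor chain that receives interleukin 11, fell by 1.55 relative to control and stat3, its transcription factor, by 2.05, and lifra, a related receptor, had 0.274 and 0 CPM at 7 dpi against 11.9 and 2.24 CPM in control hearts. Of 129 wound cytokines, growth factors and their receptors 20 rose and 35 fell, with a median of -0.38 (-1.62 on library totals, with 0 higher and 78 lower). Ligands were among those that rose. tgfb3, a ligand of the transforming growth factor family, stood at 209.7 and 183 CPM at 7 dpi, against 82.4 and 73.7 CPM in control hearts (log2 fold change 1.33, SE 0.22, adjusted p = 0.00125), mdkb, the growth factor midkine, at 32.4 and 55.5 CPM at 7 dpi, against 6.23 and 13.4 CPM in control hearts and inhbab, an activin chain, at 6.58 and 10.3 CPM at 7 dpi, against 1.88 and 2.01 CPM in control hearts. id3, a target of bone morphogenetic protein signals, rose by 1.52. erbb2, the receptor through which neuregulin drives cardiomyocyte division, stood at 1.1 and 3.15 CPM at 7 dpi, against 19.3 and 6.79 CPM in control hearts (log2 fold change -2.59, SE 0.57, adjusted p = 0.00566). Between 7 and 3 dpi 4410 genes (22.8%) were higher at 7 dpi and 5433 (28.1%) lower with TMM, against 864 higher and 13072 lower with library totals. Adjusted p was 0.0575 for erbb2 (log2 fold change -1.68) without control replicate 1. In the wound cytokines and growth factors list, 12 rose without control replicate 1.

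Most of the 10 largest rises at 7 dpi were of genes known from tissues outside the heart. Of the 10 genes with the largest rise among those of at least 10 CPM and without overlap, fabp1b.2, krt97, epcam, ponzr3, ponzr4, atp1a1a.2, krt5, krt1-19d and tg are not known as heart genes, and htra1a encodes a secreted protease of many tissues. epcam (ENSDARG00000040534), an adhesion protein of epithelia, stood at 33.2 and 28.8 CPM at 7 dpi, against 0.0819 and 0 CPM in control hearts (adjusted p = 4.57e-05), with 1 count in the control group. krt5, a keratin of the epidermis, stood at 1357 and 63.5 CPM at 7 dpi, against 0.901 and 10.4 CPM in control hearts, and krt97, another keratin, at 142 and 20.01 CPM at 7 dpi, against 0.0819 and 0 CPM in control hearts. fabp1b.2, a fatty acid carrier of the intestine, stood at 193 and 2.41 CPM at 7 dpi, against 0.0819 and 0 CPM in control hearts. The keratins and fabp1b.2 were far higher in 7 dpi replicate 1 than in 7 dpi replicate 2. ctrb1, the digestive enzyme chymotrypsinogen of the pancreas, stood at 507 and 149 CPM at 7 dpi, against 7.29 and 6.90 CPM in control hearts. tg (ENSDARG00000020084), thyroglobulin, the giant precursor of thyroid hormone, stood at 70.8 and 207 CPM at 7 dpi, against 1.88 and 0.885 CPM in control hearts (log2 fold change 6.69, SE 0.59, adjusted p = 0.000165). The 2 pools of 7 dpi hearts did not carry these genes in equal amounts. 7 dpi replicate 1 was also higher in ctrb1, whereas 7 dpi replicate 2 was higher in tg, ponzr3, ponzr4 and atp1a1a.2. atp1a1a.2, a sodium pump gene of ionocytes, stood at 0.274 and 25.2 CPM at 7 dpi, against 0.0819 and 0.0590 CPM in control hearts. ponzr3 stood at 0.914 and 36.9 CPM at 7 dpi, against 0 and 0.0590 CPM in control hearts. In lists of such markers, chosen after their values were seen, the summed level of epidermis genes was 4503 and 1239 CPM at 7 dpi, against 218 and 325 CPM in control hearts. That of gut genes was 254 and 51.0 CPM at 7 dpi, against 2.95 and 2.01 CPM in control hearts. Exocrine pancreas genes summed to 554 and 202 CPM at 7 dpi, against 54.7 and 44.2 CPM in control hearts, and ionocyte and kidney genes to 17.4 and 138 CPM at 7 dpi, against 7.95 and 7.85 CPM in control hearts. Liver genes summed to 234 and 316 CPM at 7 dpi, against 26.6 and 33.6 CPM in control hearts, with ahsg1, itih1 and kng1 higher and hp lower among 15. Of 17 epidermis genes 13 rose and dsc2l fell. In the gut list, epcam, fabp1b.2 and alpi.1 rose and apoa4b.1 fell among 14 genes, in the pancreas list ctrb1 and ela2 rose among 11, and in the list of ionocytes and kidney 8 of 14 rose. Not all foreign tissue genes moved this way. In a broader list of other organs, which also holds krt5, epcam and ctrb1, 6 of 49 rose and 7 fell. These counts lie below the shares of all genes, 18.7% higher and 20% lower. Nerve genes (elavl4, syt1a, plp1a, plp1b and mpz) were among those that fell. In the other organs list, 3 fell without control replicate 1 and 4 without control replicate 2. In skeletal muscle genes 16 of 45 rose, with a median of 0.95 (0.00 on library totals, with 9 higher and 10 lower), and the giant channels cacna1sa, ryr1a and ryr1b fell. The part of tissue carried along at dissection in the results above was not tested. Adjusted p was 0.0588 for krt5, 0.0736 for atp1a1a.2, 0.0737 for ponzr4 and 0.0751 for ryr1a without control replicate 1. Adjusted p was 0.0652 for atp1a1a.2 without control replicate 2. krt5 had a log2 fold change of 3.41 without 7 dpi replicate 1. ponzr3 lost its call without control replicate 1 (log2 fold change 8.17). It had a log2 fold change of 4.47 without 7 dpi replicate 2. Adjusted p was 0.282 for atp1a1a.2, 0.196 for ponzr4 and 0.101 for ryr1a without 7 dpi replicate 2.

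**Figure D5:**
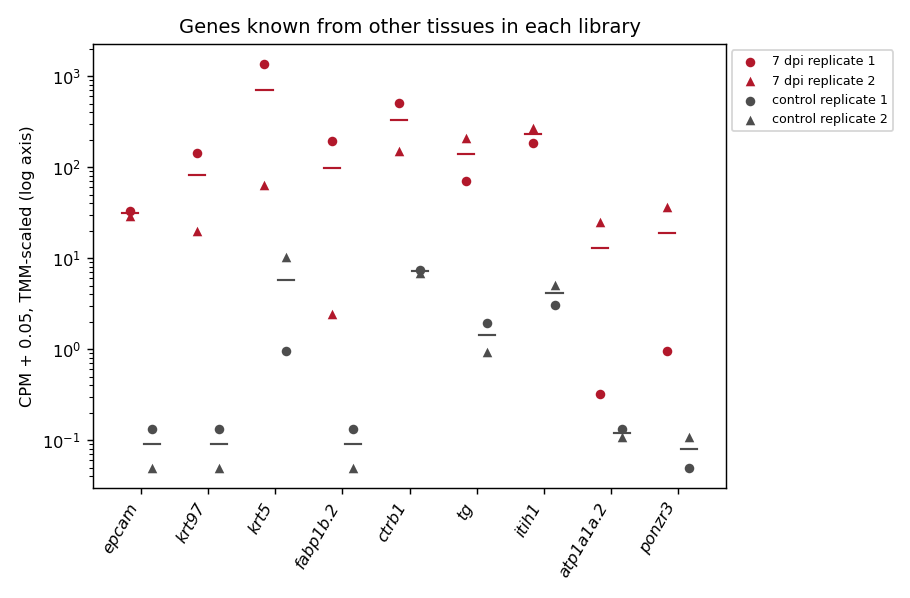
Levels of 9 genes known mainly from other tissues in each library, as TMM-scaled CPM plus 0.05 on a log axis, with 7 dpi (red) left of control (grey), circles for replicate 1, triangles for replicate 2 and a bar at the mean. All are higher in both 7 dpi libraries than in either control, and the 7 dpi libraries lie far apart in krt5, fabp1b.2, atp1a1a.2 and ponzr3.

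Other large rises were more even between the 7 dpi libraries. htra1a stood at 31.3 and 30.4 CPM at 7 dpi, against 0.492 and 0.472 CPM in control hearts (log2 fold change 5.98, SE 0.33, adjusted p = 3.24e-05). itih1 (ENSDARG00000055053), a plasma protein that binds hyaluronan in the matrix and is long, stood at 186 and 272 CPM at 7 dpi, against 3.03 and 5.07 CPM in control hearts (log2 fold change 5.80, SE 0.33, adjusted p = 3.24e-05), and at 59.4 and 67.9 CPM at 3 dpi. sat1a.2 (ENSDARG00000095908), an enzyme that breaks down polyamines, stood at 74.5 and 67.1 CPM at 7 dpi, against 1.07 and 2.01 CPM in control hearts (log2 fold change 5.48, SE 0.33, adjusted p = 4.31e-05). ppdpfa reached 6244 and 5071 CPM at 7 dpi, against 277 and 366 CPM in control hearts, and znfl2a 149 and 134 CPM at 7 dpi, against 4.34 and 11.9 CPM in control hearts. The globin genes of red cells were unequal within both groups. hbaa1 stood at 7789 and 18641 CPM at 7 dpi, against 1141 and 4248 CPM in control hearts (log2 fold change 2.29, SE 0.63, adjusted p = 0.0180). The most abundant gene entry of hbba1, at 5724 and 12146 CPM at 7 dpi, against 1864 and 5021 CPM in control hearts, did not pass (adjusted p = 0.0650). Replicate 2 thus held more RNA of hbaa1 and of this entry in each group. Another gene entry named hbba1 was called higher. Of 30 genes of adult red cells 7 rose, while klf1, ank1a, sptb, tfr1a and slc25a37 fell, with a median of 0.31 (-0.91 on library totals, with 2 higher and 15 lower). Adjusted p was 0.0851 for hbaa1 without control replicate 1. hbaa1 had a log2 fold change of 3.52 without control replicate 2. Adjusted p was 0.133 for hbaa1 (log2 fold change 1.48) without 7 dpi replicate 2. In the adult erythrocytes list, 2 rose without control replicate 1 and 3 without 7 dpi replicate 2, and 8 fell without 7 dpi replicate 2.

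Among the largest falls, pxnb (ENSDARG00000060766), which encodes the focal adhesion adaptor paxillin, had 0 counts in both 7 dpi libraries and 19.4 and 3.25 CPM in control hearts, at least 76.8-fold lower on a floor of 3 counts over the group. The other genes of the 10 largest falls are ddit3, ttn.1 and col12a1b, described above, and cers1, acer2, ppm1k, EPHB3, il2rb and cdc42bpaa. cers1, a ceramide synthase, stood at 0 and 0.830 CPM at 7 dpi, against 19 and 14.8 CPM in control hearts, and acer2, a ceramidase, at 0.183 and 0.664 CPM at 7 dpi, against 23.8 and 9.32 CPM in control hearts, so genes for making and for breaking down ceramide were both lower. ppm1k (ENSDARG00000010655), a phosphatase that switches on the breakdown of branched-chain amino acids in mitochondria, stood at 0.640 and 0.498 CPM at 7 dpi, against 22.6 and 19.9 CPM in control hearts (log2 fold change -5.21, SE 0.33, adjusted p = 4.57e-05). EPHB3, an ephrin receptor, stood at 0.183 and 0.415 CPM at 7 dpi, against 17.5 and 4.54 CPM in control hearts, il2rb, a cytokine receptor chain, at 1.01 and 0.0830 CPM at 7 dpi, against 23.5 and 11.3 CPM in control hearts and cdc42bpaa, a long kinase of the actin cytoskeleton, at 0.731 and 0.249 CPM at 7 dpi, against 20.6 and 3.95 CPM in control hearts. pcyt2, an enzyme of phosphatidylethanolamine synthesis, fell by 4.40, and sptbn1, the long spectrin of the membrane skeleton, fell by 4.01. These levels at 7 dpi rest on few counts, with 10 for cers1 and for acer2 and 13 for ppm1k over both libraries. Adjusted p was 0.0540 for col12a1b without control replicate 1. cdc42bpaa had a log2 fold change of -3.05 without control replicate 1.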

How the data were processed

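Bulk RNA of pooled adult hearts was measured in 2 libraries at 7 dpi and 2 control libraries, of 8 in the series. The authors aligned reads with TopHat2 2.0.13 to GRCz10 and counted them per gene with HTSeq, per the submitters' processing notes. The deposited count table holds raw counts for 31953 genes. Control and 7 dpi libraries held 10868019 to 26628897 counts. The deposited RPM values are these counts divided by the library totals, matched within 0.0001, and gave 100% whole reads within 0.01. They supplied gene symbols (23350), and a gene name table supplied 4026 more, which leaves 4577 genes without one. In the RPM table the replicate numbers of the control libraries are exchanged relative to the titles, and the titles were followed.

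Columns were assigned to libraries by the sequencing name in the labels. Genes passing edgeR's filterByExpr were tested in 1 fit of all 8 libraries with a coefficient per group (edgeR 4.0.16, quasi-likelihood F test, TMM, 4 residual degrees of freedom in the design), with Benjamini-Hochberg adjustment over all genes tested and a threshold of 0.05. SE is the absolute log2 fold change divided by the root of F. An exact permutation test of 2 against 2 libraries cannot give p below 0.333 and was not used. The procedure was tested on simulated data.

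The comparison and all gene lists were chosen with earlier results of these data known, and some lists after their values were seen. Genes were named by a rule: the 10 largest rises and falls among called genes with at least 10 CPM in the higher group and no overlap, and from each list the members of smallest p and highest CPM. Of the 234 genes given values, 99 follow it. The others were chosen after their values were seen, for the roles they have or as exceptions in a list. Alternatives were other scalings, filters, tools (DESeq2 1.42.0) and sample sets, and each library left out.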

Additional observations from a re-analysis of the deposited data

Results flagged for a closer look

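For 32 of the 234 named genes, the difference between 7 dpi and control, that between 3 dpi and control and that between 7 and 3 dpi each passed the test (edgeR's quasi-likelihood test, adjusted p under 0.05), and the first 2 had opposite signs. That is 13.7% of the named genes, many of which were chosen after their values were seen, while the same held for 758 of all 19330 genes tested, or 3.92%, so the larger share among the named genes is no result about them. Both injured groups were set against the same control libraries, and no explanation was tested. The signs are those of the TMM scale, and the 7 dpi libraries have a run prefix of their own. The values below are log2 differences, 7 dpi minus 3 dpi.

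Genes higher than control at 7 dpi and lower than control at 3 dpi include mitochondrial and redox genes. The differences were 4.49 for mt-nd6, 2.66 for mt-cyb, 4.76 for ndufs5, 2.13 for sdha and 3.94 for fh. They were 4.64 for acot13, 3.97 for fabp3, 3.47 for gpx1a and 3.18 for prdx3. Genes of conduction and the ventricle gave 5.27 for atp1b1b, 2.98 for gja5a and 5.80 for irx4a. For regulators of translation and stress the differences were 3.78 for eif4ebp3, 2.30 for akt1s1 and 3.10 for chac1. The clock genes nr1d1 and cry-dash gave 2.06 and 1.85, and the keratin krt94 gave 2.87. With library totals the difference between 7 dpi and control turned negative for sdha, mt-cyb, akt1s1, nr1d1 and cry-dash. It was no longer called for gja5a, fabp3, krt94, chac1 and irx4a.

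Genes lower than control at 7 dpi and higher than control at 3 dpi include leukocyte genes. The differences were -5.79 for csf1ra, -3.86 for ptprc, -3.52 for itgb2, -2.76 for cyba and -2.45 for mpeg1.1. In matrix, smooth muscle and wound signalling they were -7.18 for col12a1b, -3.30 for ltbp1, -2.73 for mmp14b, -1.78 for cald1a and -2.82 for il6st. In protein synthesis they were -2.45 for larsa, -2.21 for eef1e1, -2.08 for nop2 and -1.38 for eif4g3b.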

How the results depend on the processing

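Scaling by library totals and leaving out control replicate 1 each moved the count of called genes by over 1.5 times. With library totals 11770 genes were called between 7 dpi and control, against 7486 with TMM, and 4749 genes were called by both. Of the 234 named genes 40 kept their sign there but lost their call, among them vmhc, nppb, gja5a, hey2, irx1a, elnb and tgfb3. Library totals turned the log2 fold change negative for vmhcl (-0.89), myl7 (-0.36), tnnt2a (-0.076), atp2a2a (-0.89), sdha (-0.45), mt-cyb (-0.023), mt-nd5 (-0.65), myh11a (-0.55), akt1s1 (-0.25), lamtor2 (-0.29), atf4a (-0.038), rpl4 (-0.40), slc25a12 (-0.39), nccrp1 (-0.24), cd3eap (-0.28), irf9 (-0.55), p4ha1b (-0.59), nr1d1 (-0.48), nfil3 (-0.46), cry4 (-0.37), cry-dash (-0.33) and bhlhe41 (-0.25), of which vmhcl, atp2a2a and p4ha1b were then called lower. b2m, at -0.02 with TMM, gave 0.024 with DESeq2 size factors, 0.019 with DESeq2, and -0.24 to 0.19 with 1 library left out. col4a3 gave -2.67 to 8.51 with 1 library left out. Leaving out 1 library gave 4093 to 7019 genes called against control (4093 without control replicate 1), and 7911 to 8612 against 3 dpi, where 9843 were called. Without control replicate 1, 69 of the 234 named genes lost their call. The other alternatives run stayed within 1.5 times of the count called. Some named genes kept their call in few of the 15 alternatives. It was kept in 5 for nppa and myh11a, in 6 for larsa, rrp8, irf9 and slc25a12, and in 7 for tnnt2a, sdha, psme4b and eif4g3b. For mt-cyb it was kept in 6 of 14 and for col10a1a in 6 of 12. With only the 7 dpi and control libraries in the fit 6744 genes were called against control, and with only adult libraries 6485. On whole reads of the RPM table, an alternative chosen after the data were seen, 6128 genes were called. The replicate block gave 6854 genes called against control and 9183 against 3 dpi. Same-numbered libraries of control and 7 dpi did not deviate together (correlation -0.041), nor did those of 3 and 7 dpi (-0.034). With 1 difference per group, these values cannot show whether same-numbered libraries had a clutch, a day or a batch in common. An offset for protein length was not run, since no lengths were at hand, and the size classes stand in its place. With 2 pooled libraries per group, depth limits genes of a few counts.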

Other observations

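Genes of daily rhythm and oxygen sensing moved in both directions. Of 44 clock genes 13 fell, and nr1d1, nfil3, cry4, cry-dash and bhlhe41 rose, with a median log2 fold change of -0.42 (-1.67 on library totals, with 0 higher and 36 lower) (18.7% of all genes rose and 20% fell). per3, a period gene that restrains the clock, stood at 5.57 and 6.97 CPM at 7 dpi, against 74.8 and 19.8 CPM in control hearts (log2 fold change -2.91, SE 0.52, adjusted p = 0.00204), and nfil3-6, a clock-controlled repressor, at 30.2 and 37.6 CPM at 7 dpi, against 164 and 79.0 CPM in control hearts. The labels give no hour of sampling, and its part in these values was not tested. Of 38 hypoxia genes 14 fell, and egln1b, hif1an, vhl, p4ha1b and igfbp1a rose, with a median of -0.05 (-1.3 on library totals, with 0 higher and 27 lower). vegfab, which makes vessels grow, stood at 87.1 and 91.0 CPM at 7 dpi, against 193 and 202 CPM in control hearts (log2 fold change -1.15, SE 0.22, adjusted p = 0.00247), and epas1b, an oxygen-sensitive transcription factor, fell by 1.40. igfbp1a, a binding protein that holds back insulin-like growth factor, stood at 60.2 and 209 CPM at 7 dpi, against 19 and 34.3 CPM in control hearts (log2 fold change 2.33, SE 0.59, adjusted p = 0.0107). Genes that restrain hypoxia factors, egln1b, hif1an and vhl, rose by 1.34, 1.27 and 1.26. Adjusted p was 0.183 for nfil3, 0.0520 for cry4, 0.0683 for cry-dash, 0.0732 for bhlhe41, 0.112 for igfbp1a, 0.0511 for vhl and 0.145 for p4ha1b without control replicate 1. per3 had a log2 fold change of -1.68 without control replicate 1. Adjusted p was 0.0823 for nr1d1 without control replicate 2. Adjusted p was 0.0509 for nr1d1, 0.234 for nfil3 (log2 fold change 0.51), 0.0507 for cry4, 0.0884 for cry-dash and 0.0665 for p4ha1b without 7 dpi replicate 1. Adjusted p was 0.0813 for nr1d1, 0.0595 for bhlhe41, 0.141 for igfbp1a (log2 fold change 1.13) and 0.164 for p4ha1b without 7 dpi replicate 2. In the circadian clock list, 1 rose without control replicate 1, 1 without 7 dpi replicate 1 and 3 without 7 dpi replicate 2. In the hypoxia list, 2 rose without control replicate 1 and 3 without 7 dpi replicate 2.

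Of 70 lysosome and cathepsin genes 16 rose and 10 fell, with a median of 0.29 (-0.96 on library totals, with 1 higher and 39 lower). Among all genes 18.7% rose and 20% fell. Of 39 genes of cholesterol and lipid synthesis 8 rose and 9 fell, near the shares of all genes, with a median of -0.08 (-1.35 on library totals, with 1 higher and 24 lower). Of 84 actin cytoskeleton genes 36 rose and 15 fell, with a median of 0.59 (-0.65 on library totals, with 14 higher and 39 lower). Of 19 thrombocyte genes 6 fell, among them the integrin itga2b and the thrombopoietin receptor mpl, and gata1a, a factor of red cells as well, rose, with a median of -0.71 (-1.98 on library totals, with 0 higher and 17 lower). In the thrombocytes list, 0 rose without control replicate 1, 0 without 7 dpi replicate 1 and 0 without 7 dpi replicate 2, and 3 fell without control replicate 1. In the lysosome and cathepsins list, 5 rose without control replicate 1, 7 without 7 dpi replicate 1 and 7 without 7 dpi replicate 2. In the cholesterol and lipid synthesis list, 5 rose without 7 dpi replicate 2. In the actin cytoskeleton list, 7 fell without control replicate 1.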
